A study of Mus musculus with 188 samples.

Results

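CC chemokines are small secreted proteins with a pair of adjacent cysteines that steer leukocytes by binding G protein-coupled receptors of the Ccr family. In the brain they are made by microglia, border macrophages, astrocytes and vascular cells, and they are known for calling monocytes and lymphocytes to injured tissue. The 7 genes described here are the rows of the count tables whose Ensembl identifiers map to Ccl2, Ccl7, Ccl12, Ccl3, Ccl4, Ccl5 and Ccl9, out of 25472 identifiers listed in every library. Ccl2, Ccl7 and Ccl12 are ligands of Ccr2, the receptor of inflammatory monocytes. Ccl3, Ccl5 and Ccl9 bind Ccr1, and Ccl3 and Ccl4 are made by activated macrophages.

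The libraries are bulk mRNA of organotypic brain slice cultures (BSC), coronal slices from perfused adult C57BL/6J mice of both sexes, kept at an air-liquid interface and exposed to products of red blood cells with or without human scavenger proteins. The question was how the plasma proteins haptoglobin (Hp) and hemopexin (Hpx), which bind hemoglobin (Hb) and heme tightly, alter the response to these toxins. The labels put the libraries into 18 groups, apart from 21 libraries whose labels leave the group unclear. In batch 1, control, heme-albumin at 12.5, 50, 200 and 400 µM and hemeHpx at 200 µM were each sampled at 24 h, with 10 libraries per group (60 in all). In batches 2 and 3, control, Hb at 200 and 400 µM, HbHp at 200 and 400 µM and Hp alone at 400 µM were sampled at 24 h and 48 h. These groups held 10 control, 10, 10, 8, 4 and 12 libraries at 24 h and 9 control, 10, 10, 8, 5 and 11 libraries at 48 h, in that order. The controls are labelled 0 µM, and no group had albumin alone. Slices have no circulation, so no further cells can arrive from the blood during exposure. The titles of the hemeHpx libraries name haptoglobin, and their treatment tags and library names give hemopexin, which was followed here. The labels do not say which libraries share an animal, and p-values measure the spread between these libraries, which may in part be technical. Libraries carry codes that recur across groups and at times within a group. The main fits did not use these codes, and a replicate block by code was run as an alternative. Whether a level falls because fewer cells of a type are left or because each cell holds less of the RNA cannot be told apart in bulk tissue.

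Library names in batches 2 and 3 begin with E1 or E2, and every HbHp library is E2 and of batch 3. Only 3 of 10 controls at 24 h and 2 of 9 at 48 h are E2, and only 1 control at each time is both E2 and of batch 3. Comparisons within E2 therefore hold controls of both batches, with a batch term. The fit of all libraries carries a term for batch and one for prefix. The depth per library lay between 11038484 and 44199060 counts in batch 1 and between 15587938 and 54174784 counts in batches 2 and 3. The 12 microglia markers fixed for the check of cell types (Cx3cr1, P2ry12, Tmem119, Csf1r and others) all passed the filter on low counts in both sets. None of 9 markers of T and NK cells passed it in batch 1, with Cd3g at 0 in every library. Of 8 markers of monocytes and neutrophils 2 passed it, and Ly6c2, which marks inflammatory monocytes, had at most 2 counts in a library.

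All 7 genes lie on mouse chromosome 11 in the GENCODE M21 annotation of GRCm38, in 2 clusters. Ccl2, Ccl7 and Ccl12 share one strand of the first cluster, where Ccl11 lies between Ccl7 and Ccl12. Ccl5, Ccl9, Ccl3 and Ccl4 belong to the second, with Ccl6 next to Ccl9. The only annotated overlap is that of Ccl2 with Gm17268 on the opposite strand, which never exceeded 1 count in a library. RefSeq windows before the gene start were at hand for 3 of the 7 genes, Ccl12, Ccl9 and Ccl3. They are shown because these 3 genes were among those that fell with heme-albumin at 200 µM. Each is the 250 bases before the start in GRCm38.p6, 5′ to 3′ on the gene's strand, with capitals marking motif matches.

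Ccl12 (chr11:82101595-82101844, + strand): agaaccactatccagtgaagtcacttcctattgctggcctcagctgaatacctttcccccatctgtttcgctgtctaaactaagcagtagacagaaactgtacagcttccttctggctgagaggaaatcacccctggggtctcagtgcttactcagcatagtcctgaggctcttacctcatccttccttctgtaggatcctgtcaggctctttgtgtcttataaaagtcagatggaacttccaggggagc
Ccl9 (chr11:83578637-83578886, - strand): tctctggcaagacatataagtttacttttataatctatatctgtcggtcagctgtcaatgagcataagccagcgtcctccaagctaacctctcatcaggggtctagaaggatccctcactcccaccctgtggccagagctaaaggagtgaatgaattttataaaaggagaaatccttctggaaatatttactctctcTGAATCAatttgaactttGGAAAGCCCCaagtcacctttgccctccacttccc
Ccl3 (chr11:83649379-83649628, - strand): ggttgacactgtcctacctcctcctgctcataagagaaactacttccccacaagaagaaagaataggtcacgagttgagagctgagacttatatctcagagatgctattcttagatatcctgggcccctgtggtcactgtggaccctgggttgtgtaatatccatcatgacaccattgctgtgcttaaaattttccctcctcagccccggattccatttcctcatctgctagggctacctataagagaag

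The windows were searched on both strands for the kappaB motif, a loose AP-1 pattern (TGANTCA, any base in the middle) and the antioxidant response element core (TGACNNNGC). An AP-1 match here means this loose pattern, and the one found reads TGAATCA. Only the Ccl9 window held matches, a kappaB match starting 35 bases and an AP-1 match starting 53 bases before the gene start, which do not overlap. Of 32851 windows of this length, 3.9% held a kappaB match, 6.75% an AP-1 match and 10.2% an antioxidant response element core. The absence of these letters from the Ccl12 and Ccl3 windows says nothing about the factors.

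Levels are given as CPM, counts scaled to the library size after TMM normalization. Per kilobase of annotated exon, Ccl2 was the most abundant of the 7 genes in 10 of 18 groups and Ccl3 in the other 8. In controls of batch 1, mean levels per kilobase were 46.7 CPM for Ccl2, 34.4 CPM for Ccl3 and 16.9 CPM for Ccl4. Ccl12, Ccl9 and Ccl7 followed at 14, 13.9 and 13.7 CPM per kilobase. Ccl5, a chemokine of activated T cells and glia, was the least abundant in all 18 groups, at 0.573 CPM per kilobase in these controls.

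Heme-albumin at 24 h moved the chemokines in opposite directions. At 200 µM, Ccl2 rose to 1.55-fold of control, whereas Ccl12 fell to 29.3%, Ccl4 to 36.7%, Ccl9 to 53.4% and Ccl3 to 59.7% of it. At 400 µM, Ccl2 and Ccl7 rose 2.11-fold and 2.09-fold, and Ccl12, Ccl4 and Ccl9 stood at 25.1%, 42.4% and 58.4% of control. A gene was called changed when its adjusted p in edgeR's quasi-likelihood test was under 0.05 over all genes tested. By this rule 1 member rose and 4 fell at 200 µM, where 13.6% of all genes were called, and 2 rose and 3 fell at 400 µM, where 29% were. No member was called at 12.5 µM (0.0450% of genes) or at 50 µM (0.463%), where unadjusted p-values of Ccl2 (0.0345) and Ccl12 (0.000573) at 50 µM were the only ones of the 14 under 0.05.

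Ccl2, the main attractant of Ccr2-positive monocytes, ran from 30.6 to 71.8 CPM in the 10 controls with a median of 54.5 CPM. It ran from 57.4 to 124 CPM (median 72) with 200 µM and from 51 to 211 CPM (median 101) with 400 µM heme-albumin. The highest control was exceeded by 5 of 10 libraries at 200 µM and by 8 of 10 at 400 µM, and the ranges still overlapped. The differences were 0.63 ± 0.20 (log2 fold change ± SE, adjusted p = 0.0237) at 200 µM and 1.07 ± 0.20 (adjusted p = 2.52e-05) at 400 µM.

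Ccl7, another Ccr2 ligand and the neighbour of Ccl2, was not called up to 200 µM and rose at the highest dose. Its medians were 12 CPM in controls (4.46 to 14.1), 11 CPM at 200 µM (7.98 to 19) and 21.3 CPM at 400 µM (8.56 to 47.4). At 400 µM, 7 of 10 libraries exceeded every control, and the difference from control was 1.06 ± 0.20 on the log2 scale (adjusted p = 3.99e-05). From 200 to 400 µM Ccl7 rose by 0.82 ± 0.20 (adjusted p = 0.0188), the only member called in that step, in which 1.27% of all genes were called.

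Ccl12, the third Ccr2 ligand, went the other way. Its median was 5.71 CPM in controls (2.73 to 14.5), 4.72 at 12.5 µM (3.31 to 8.45) and 3.53 at 50 µM (1.6 to 6.81). At 200 µM it was 2.07 CPM (1.16 to 4.37) and at 400 µM 1.73 CPM (0.823 to 3.23). At each of the 2 highest doses 8 of 10 libraries lay below the lowest control. The differences from control were -1.77 ± 0.27 (adjusted p = 4.01e-06) and -1.99 ± 0.28 (adjusted p = 7.1e-08), and those at 12.5 and 50 µM (-0.52 and -0.96) were not called. With a replicate block the one at 50 µM was (-0.92, adjusted p = 0.0443), as it was by DESeq2 (adjusted p = 0.0466).

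Ccl4, a chemokine of activated macrophages and microglia, had a median of 9.04 CPM in controls (4.27 to 20.7), 4.01 at 200 µM (2.17 to 6.67) and 4.37 at 400 µM (2.14 to 9.86). At these doses 6 and 5 of 10 libraries lay below the lowest control. The differences were -1.45 ± 0.28 (adjusted p = 0.000221) and -1.24 ± 0.28 (adjusted p = 0.000449). Ccl3, which lies beside Ccl4, had medians of 22.5 CPM in controls (12.4 to 44.6), 16.2 at 200 µM (9.35 to 22.7) and 16.4 at 400 µM (9.92 to 32.7). It was called at 200 µM (-0.75 ± 0.25, adjusted p = 0.0336) and not at 400 µM (-0.51 ± 0.25, adjusted p = 0.109). Without the 4 libraries of high Ccl5 described below, Ccl3 passed the threshold at 400 µM (-0.64, adjusted p = 0.0331). Those libraries were chosen after seeing the data, and none is a control. Ccl3 and Ccl5 also varied together in batch 1 (Pearson r 0.612), so this call cannot decide whether Ccl3 fell.

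Ccl9, a Ccr1 ligand of myeloid cells, had a median of 42.4 CPM in controls (19.2 to 72), 33.9 at 50 µM (25.1 to 62), 21.9 at 200 µM (11.9 to 40.9) and 23.8 at 400 µM (9.83 to 46.3). At 200 µM 9 of 10 libraries lay below the lowest library of 50 µM. It was the only member called in that step, at -0.80 ± 0.21 (adjusted p = 0.0492), and 0.797% of all genes were called there. That call was lost without the 4 libraries of high Ccl5 described below (-0.71, adjusted p = 0.0767), an exclusion chosen after seeing the data. Against control it fell by 0.91 ± 0.21 on the log2 scale at 200 µM (adjusted p = 0.00237) and by 0.78 ± 0.21 at 400 µM (adjusted p = 0.00403).

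**Figure D1:**
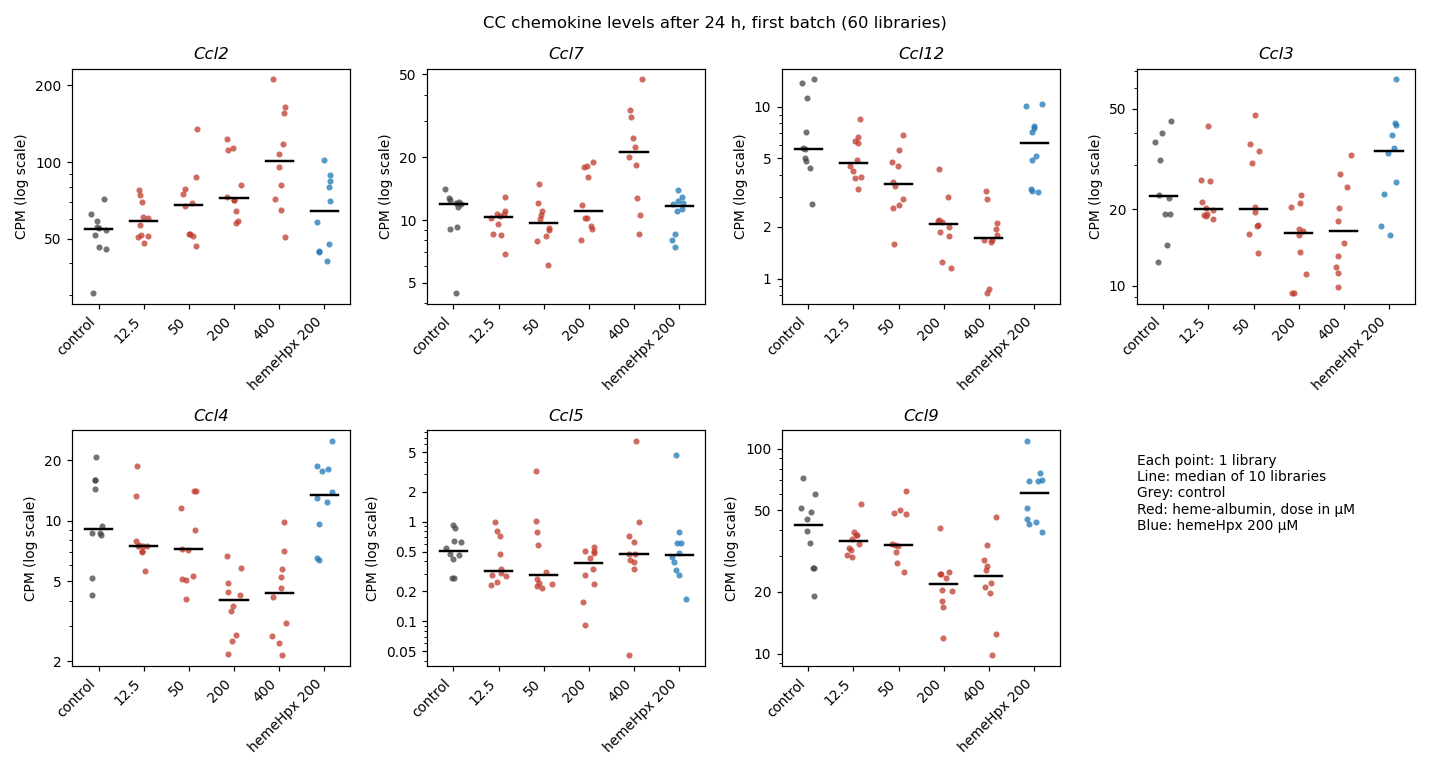
Levels of the 7 CC chemokines in the 60 libraries of batch 1, 1 panel per gene, with CPM on a log axis and the groups from control through 4 heme-albumin doses (12.5, 50, 200 and 400 µM) to hemeHpx on the horizontal axis. Points are libraries and lines are medians of 10: Ccl2 climbs from 54.5 to 101 CPM and Ccl12 drops from 5.71 to 1.73 CPM between control and 400 µM, while the hemeHpx medians are 64.3 and 6.17 CPM.

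With hemeHpx at 200 µM no member was called against control, where 8.20% of all genes were. Ccl12 ran from 3.19 to 10.4 CPM with a median of 6.17, Ccl4 from 6.37 to 24.9 (median 13.4) and Ccl3 from 15.9 to 65.2 (median 34.1). Ccl9 had the highest median of the 6 groups, 60.5 CPM (39.1 to 109), and its difference from control was 0.54 ± 0.21 (adjusted p = 0.0786), which was called with a replicate block (0.56, adjusted p = 0.0323). The groups overlapped for every member. Ccl2 (median 64.3 CPM, 40.8 to 102) differed from control by 0.31 ± 0.20 and Ccl7 (median 11.7 CPM, 7.46 to 14) by -0.01 ± 0.20.

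Set against heme-albumin at the same dose, hemeHpx had higher levels of the 4 members that heme-albumin lowered. Ccl4 was 3.43-fold higher (1.78 ± 0.28, adjusted p = 7.01e-06), Ccl12 2.85-fold (1.51 ± 0.27, adjusted p = 6.15e-05), Ccl9 2.73-fold (1.45 ± 0.22, adjusted p = 2.12e-06) and Ccl3 2.17-fold (1.12 ± 0.25, adjusted p = 0.000938). In this contrast 25.9% of all genes were called. Between 7 and 9 of the 10 hemeHpx libraries exceeded every heme-albumin library for these 4 genes. Ccl2 and Ccl7 were not called, at -0.32 ± 0.20 and -0.25 ± 0.20. This contrast and the one with control share the heme-albumin libraries, so the 2 sets of values are not independent.

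Markers of glial cells were lower in part as well. The 12 microglia markers summed to 792 to 2966 CPM in controls (median 1393), 596 to 1410 CPM with 200 µM heme-albumin (median 1023) and 1002 to 2458 CPM with hemeHpx (median 1768). With 200 µM heme-albumin 8 of 12 were called lower, with a median log2 difference of -0.82 over the list, and with 400 µM 4 of 12 were (median -0.60). Over all genes 13.6% and 29% were called in either direction. Those called lower were 1027 of 15554 genes at 200 µM and 2226 of 15554 at 400 µM. Between hemeHpx and heme-albumin 10 of the 12 microglia markers were called higher (median 0.87). In that contrast 25.9% of all genes were called in either direction, and 2016 of 15554 were higher. Of 7 markers of border-associated macrophages, 3 were lower at 200 µM and 2 at 400 µM, and 4 were higher with hemeHpx than with heme-albumin. Of 8 astrocyte markers, 4 were lower at 200 µM and 6 at 400 µM. Of the 2 tested markers of monocytes and neutrophils 1 was higher at 400 µM. The median over all genes tested was -0.01 at 200 µM. The part of the number of microglia or astrocytes in these differences was not tested.

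Among the receptors, Ccr1, which binds Ccl3, Ccl5 and Ccl9, fell by 0.65 ± 0.22 on the log2 scale at 200 µM (adjusted p = 0.0368). Ccr2, the receptor of Ccl2, Ccl7 and Ccl12, averaged 0.104 CPM in batch 1 and did not pass the filter there. Ccr1 and the atypical receptor gene Ccrl2 were higher with hemeHpx than with heme-albumin, by 1.05 and 0.70. Of 12 further CC chemokine genes, 5 were tested. Ccl25, a chemokine of thymus and gut, rose at 400 µM by 0.39 ± 0.11 (adjusted p = 0.00396), and Ccl6 and Ccl8 were higher with hemeHpx than with heme-albumin by 0.81 and 0.69.

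A list made for NF-kappaB signalling and cytokines also holds Ptgs2, Icam1, Vcam1, Socs3 and Zfp36, so its counts are not of upstream regulators alone. Of its 27 tested genes, 7 rose and 1 fell at 200 µM, and 13 rose and 2 fell at 400 µM. Over all genes 13.6% were called at 200 µM and 29% at 400 µM, in either direction. Ptgs2, which encodes the inducible cyclooxygenase, rose by 1.54 ± 0.27 and 2.73 ± 0.28 at these doses. The NF-kappaB subunit genes Relb, Nfkb2 and Rela rose by 0.69, 0.58 and 0.36 at 400 µM. Il1rn, the interleukin 1 receptor antagonist, fell by 1.08 ± 0.27 at 200 µM. With hemeHpx, Ptgs2 was lower than with heme-albumin (log2 difference -1.32 ± 0.26) and Il1rn was higher by 0.91 ± 0.27.

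Ccl5 was called in none of the comparisons of batch 1 in the fit of all 60 libraries, and its fitted differences turned on single libraries. In controls it ran from 0.270 to 0.925 CPM with a median of 0.508. The highest library reached 6.47 CPM with 400 µM heme-albumin (median 0.472), 4.74 CPM with hemeHpx (median 0.460) and 3.25 CPM with 50 µM (median 0.290). The fitted difference at 400 µM was 1.02 ± 0.55 with all libraries and -0.13 ± 0.34 without these 3 libraries (and 1 of HbHp described below). For hemeHpx it was 0.74 ± 0.55 and -0.30 ± 0.34. At 50 µM it was 0.38 ± 0.57 and -0.33 ± 0.34, so in each of these groups the sign turned on 1 library. Between hemeHpx and heme-albumin at 200 µM the values were 1.36 ± 0.57 (adjusted p = 0.0648) and 0.33 ± 0.35, and a fit of only control and these 2 groups called it (1.37, adjusted p = 0.0304).

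**Figure D2:**
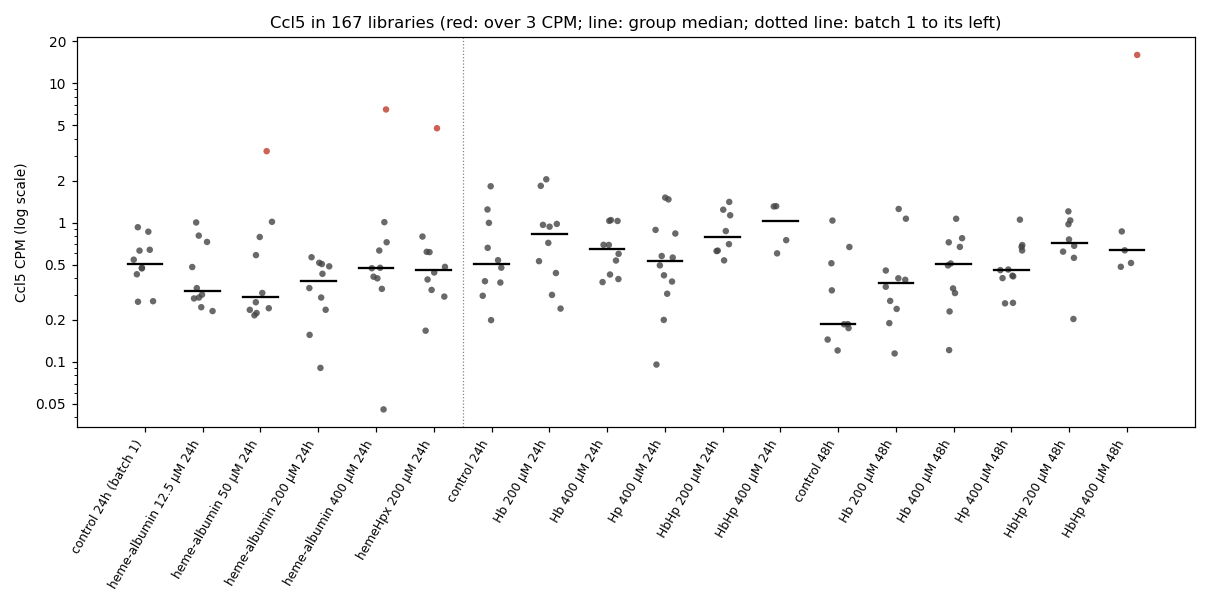
Ccl5 in the libraries of the 18 groups, with CPM on a log axis and group medians as lines. The 4 red points, the only libraries over 3 CPM, are 1 each of heme-albumin 50 µM (3.25 CPM), heme-albumin 400 µM (6.47 CPM), hemeHpx (4.74 CPM) and HbHp 400 µM at 48 h (15.9 CPM).

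Free Hb left the 7 genes without a call at either dose or time. The share of all genes called was 0.0971% and 0.522% for 200 and 400 µM at 24 h and 0.310% and 0.601% at 48 h. The nearest was Ccl2 at 24 h, with medians of 46.8 CPM in controls (38.1 to 72.9), 62.7 with 200 µM Hb (52 to 93.7) and 65.5 with 400 µM (46.6 to 97.5). Its differences from control were 0.39 ± 0.14 (unadjusted p = 0.00592, adjusted p = 1) and 0.41 ± 0.14 (unadjusted p = 0.00358, adjusted p = 0.272). Within E1 the 6 libraries of 400 µM ran from 62.8 to 97.5 CPM and the 7 controls from 38.1 to 58.5 CPM, with no overlap. A fit of E1 alone called Ccl2 (0.62, adjusted p = 0.0309), and the share of all genes called in that fit was not counted. The 4 E2 libraries of that dose (46.6 to 69.5 CPM) lay within the range of the 3 E2 controls (42.4 to 72.9 CPM). Ccl9 at 48 h had medians of 28.1 CPM in controls and 51.7 with 400 µM Hb, with 5 of 10 libraries above every control, and was not called (0.54 ± 0.22, adjusted p = 0.464).

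Hp alone at 400 µM gave no call at 24 h (0.704% of all genes) or 48 h (10.8%). Levels in these groups were split by library prefix. At 24 h Ccl12 ran from 0.401 to 3.08 CPM in the 6 E1 libraries and from 6.19 to 13 CPM in the 6 E2 libraries. At 48 h it ran from 0.982 to 4.58 CPM in 5 E1 and from 10.6 to 15.9 CPM in 6 E2 libraries. The E1 controls ran from 2.26 to 8.35 CPM at 24 h, and the fits within one prefix gave -1.36 ± 0.56 in E1 and 0.43 ± 0.34 in E2 for Hp against control, neither called (adjusted p = 0.251 and 0.819). Ccl4 followed the same pattern, from 3.44 to 12.3 CPM in E1 and 22.8 to 38 CPM in E2 at 24 h.

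Across all groups of batches 2 and 3, the E2 term was positive for 6 of the 7 genes, and 68.0% of all genes were called for it. Ccl4 was higher by 1.28 ± 0.15 (adjusted p = 1.07e-12), Ccl12 by 1.24 ± 0.19, Ccl5 by 1.16 ± 0.20, Ccl3 by 0.86 ± 0.11, Ccl7 by 0.36 ± 0.06 and Ccl9 by 0.32 ± 0.11. Ccl2 alone was not called (-0.03 ± 0.08). The Ccl9 call was lost in batch 2 alone (0.23, adjusted p = 0.246). Over 7 alternatives Ccl12 ran from 0.70 to 1.81 and Ccl4 from 0.88 to 1.66, all called. The microglia markers again moved alongside, with 11 of 12 higher in E2 and 1 lower (median 1.04), and their part in the difference was not tested. What the prefixes stand for is not stated in the labels.

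**Figure D3:**
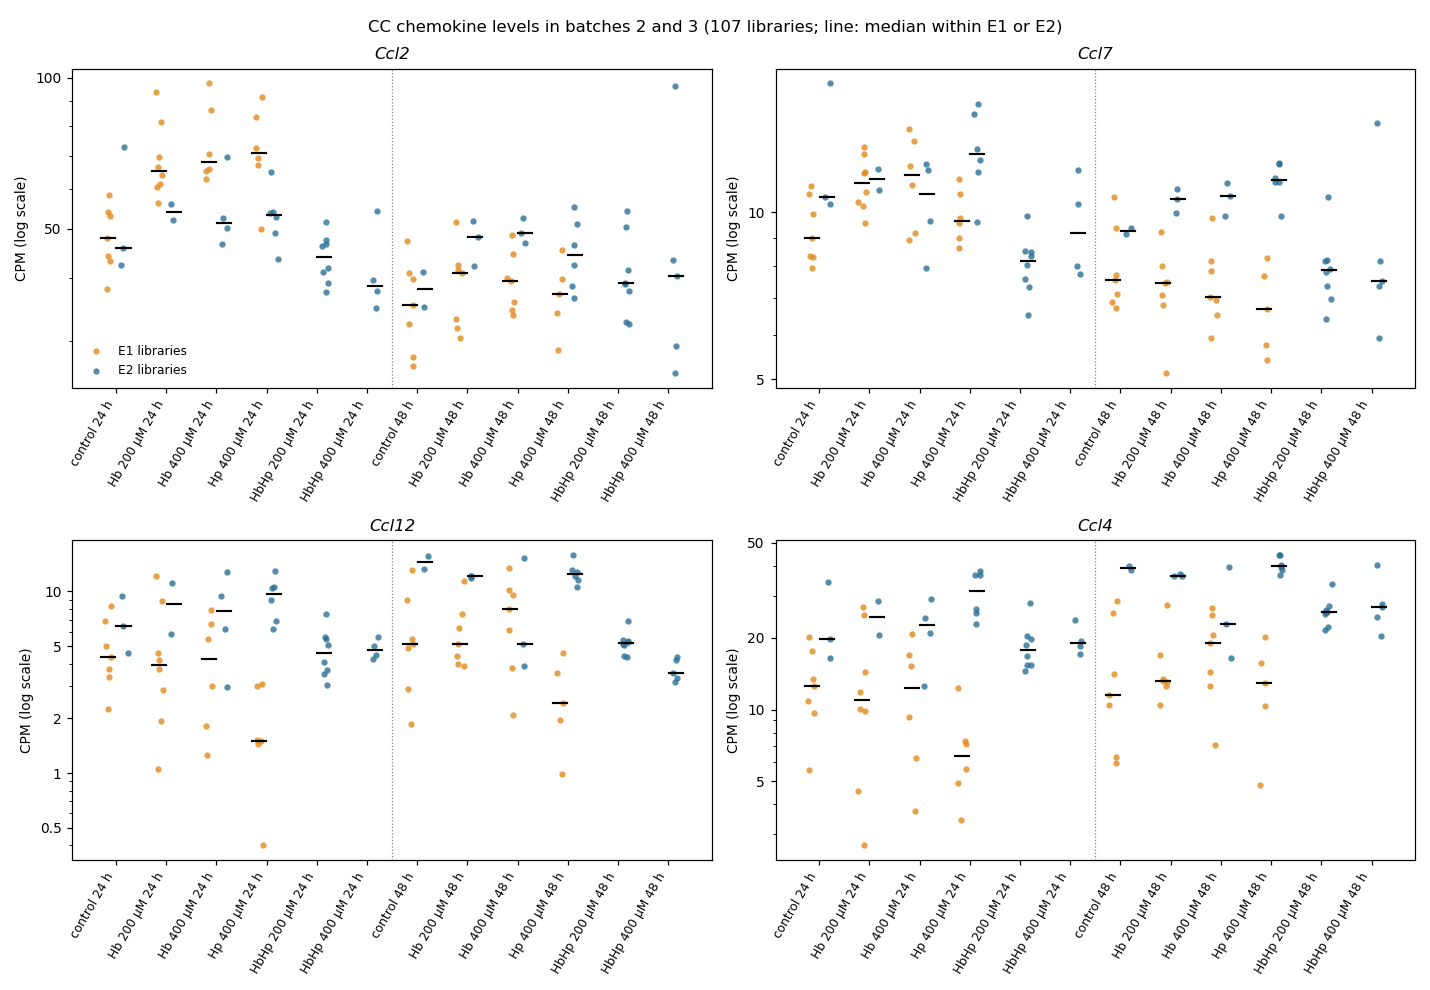
Ccl2, Ccl7, Ccl12 and Ccl4 in the libraries of batches 2 and 3, with CPM on a log axis, E1 libraries in orange, E2 libraries in blue and lines at the median within each prefix; groups of 24 h are left of the dotted line and those of 48 h right of it. Ccl12 in HbHp at 48 h (3.17 to 6.84 CPM) sits below every other E2 library of 48 h except those of 400 µM Hb at 3.88 and 5.13 CPM.

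With HbHp, Ccl7 was called lower at 24 h and Ccl12 at 48 h. At 24 h, 1 member was called for 200 µM (1.93% of all genes) and none for 400 µM (5.15%). Ccl7 ran from 6.51 to 9.83 CPM in the 8 libraries of 200 µM, below the 3 E2 controls (10.3 to 17.1 CPM) and overlapping with the 7 E1 controls (7.93 to 11.2 CPM). The fitted difference was -0.61 ± 0.15 (adjusted p = 0.0104). Against 200 µM Hb (9.57 to 13.1 CPM) 7 of 8 libraries were lower than every Hb library, at -0.80 ± 0.15 (adjusted p = 0.00207), in a contrast that called 0.607% of all genes. The call against control was also lost with a replicate block (-0.53, adjusted p = 0.0575). Within E2 alone neither contrast was called (-0.54, adjusted p = 0.219 against 3 controls, and -0.36, adjusted p = 1 against 2 Hb libraries).

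Ccl2 in the same contrast of HbHp with Hb did not overlap, with 37.5 to 51.6 CPM in 8 HbHp libraries and 52 to 93.7 CPM in 10 Hb libraries. Its difference of -0.63 ± 0.18 missed the threshold (adjusted p = 0.057). It was called by DESeq2 (adjusted p = 0.0299) and not in E2 alone, and 0.607% of all genes were called in this contrast. All 8 HbHp libraries are E2, whereas 8 of the 10 Hb libraries are E1 (56.2 to 93.7 CPM). The 2 E2 libraries of Hb had 52 and 56 CPM, just above the highest HbHp library.

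At 48 h Ccl12 ran from 4.35 to 6.84 CPM in the 8 libraries of 200 µM HbHp. The 5 libraries of 400 µM had 3.17, 3.58, 4.17, 3.36 and 4.36 CPM. The 2 E2 controls stood at 13.4 and 15.8 CPM, the 3 E2 libraries of 200 µM Hb at 11.9 to 12.2 CPM and the 6 E2 libraries of 400 µM Hp at 10.6 to 15.9 CPM. No HbHp library reached any of these. The 3 E2 libraries of 400 µM Hb had 3.88, 5.13 and 15.3 CPM, so 2 of them lay within the HbHp range. The 7 E1 controls spread from 1.86 to 13.1 CPM and overlapped with HbHp.

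The fit of both prefixes gave -1.39 ± 0.42 for 200 µM (adjusted p = 0.0175) and -1.88 ± 0.49 for 400 µM (adjusted p = 0.00434) against control, with 11.9% of all genes called for each dose. Against 200 µM Hb it gave -1.32 ± 0.41 (adjusted p = 0.0434, 4.98% of genes called), which in E2 alone was -1.26 (adjusted p = 0.0629). With a batch term and no prefix term the calls were lost, at -0.70 (adjusted p = 0.293) and -1.19 (adjusted p = 0.121) against control. Within E2 alone (54 libraries) the differences from control were -1.52 ± 0.34 (adjusted p = 0.00834, 3.93% of genes called) and -2.01 ± 0.37 (adjusted p = 0.000649, 4.66% of genes called). At 24 h neither dose was called in E2, where 0.907% and 1.97% of genes were, and Ccl12 differed by -0.55 ± 0.32 and -0.52 ± 0.37. The fit of both prefixes gave -1.01 ± 0.41 and -0.98 ± 0.50 at 24 h, also not called. In batch 3 alone, which has 2 controls at 24 h, Ccl12 was called lower for both doses (-2.01, adjusted p = 0.0092, and -1.97, adjusted p = 0.0226). The share of all genes called in the batch 3 fit was not counted.

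The contrast of HbHp with Hp at 400 µM holds only libraries of batch 3, and within E2 those of 1 prefix. Within E2, Ccl12 was lower with HbHp by 1.78 ± 0.28 on the log2 scale at 48 h (adjusted p = 4.35e-05, 3.37% of genes called) in 5 against 6 libraries that did not overlap. At 24 h, 4 HbHp libraries (4.25 to 5.62 CPM) also lay below all 6 E2 libraries of Hp (6.19 to 13 CPM), at -0.94 ± 0.30, which was not called (adjusted p = 0.143, 0.992% of genes called). The fit that also held E1 did not call it at either time (adjusted p = 0.806 at 24 h and 0.071 at 48 h), with 0.619% and 1.44% of genes called. At 48 h DESeq2 (-1.42, adjusted p = 0.0324) and a fit of batch 3 alone (-1.61, adjusted p = 0.0045) did. Ccl4 at 48 h was 20.4 to 40.5 CPM with HbHp and 36.8 to 44.5 CPM with Hp in E2 (-0.55 ± 0.20, adjusted p = 0.116). Of the 12 microglia markers only P2ry12 was called lower in HbHp 400 µM against control or Hp at 48 h, with list medians of -0.30 and -0.38. Their sums ran from 2190 to 5022 CPM with 400 µM HbHp and from 2734 to 4448 CPM with 200 µM at 48 h.

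Ccl5 was called higher with 400 µM HbHp at 48 h, against control (2.90 ± 0.52, adjusted p = 2.58e-05) and against Hp (2.36 ± 0.44, adjusted p = 0.000459). The 5 libraries had 0.513, 15.9, 0.481, 0.632 and 0.864 CPM, so 1 library, replicate 2, carried the difference. Without it the values were 0.34 (adjusted p = 0.697) and -0.20 (adjusted p = 0.865). That library also had the highest Ccl9 (128 CPM, the others 39.3 to 47.8), Ccl3 (94 CPM, the others 50.5 to 59.1), Ccl2 (96.4 CPM, the others 25.8 to 43.4) and Ccl7 (14.5 CPM, the others 5.93 to 8.15) of its group. Its Ccl12, at 3.58 CPM, lay among the others. Without it Ccl7 was called lower against control (-0.49, adjusted p = 0.0408).

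**Figure D4:**
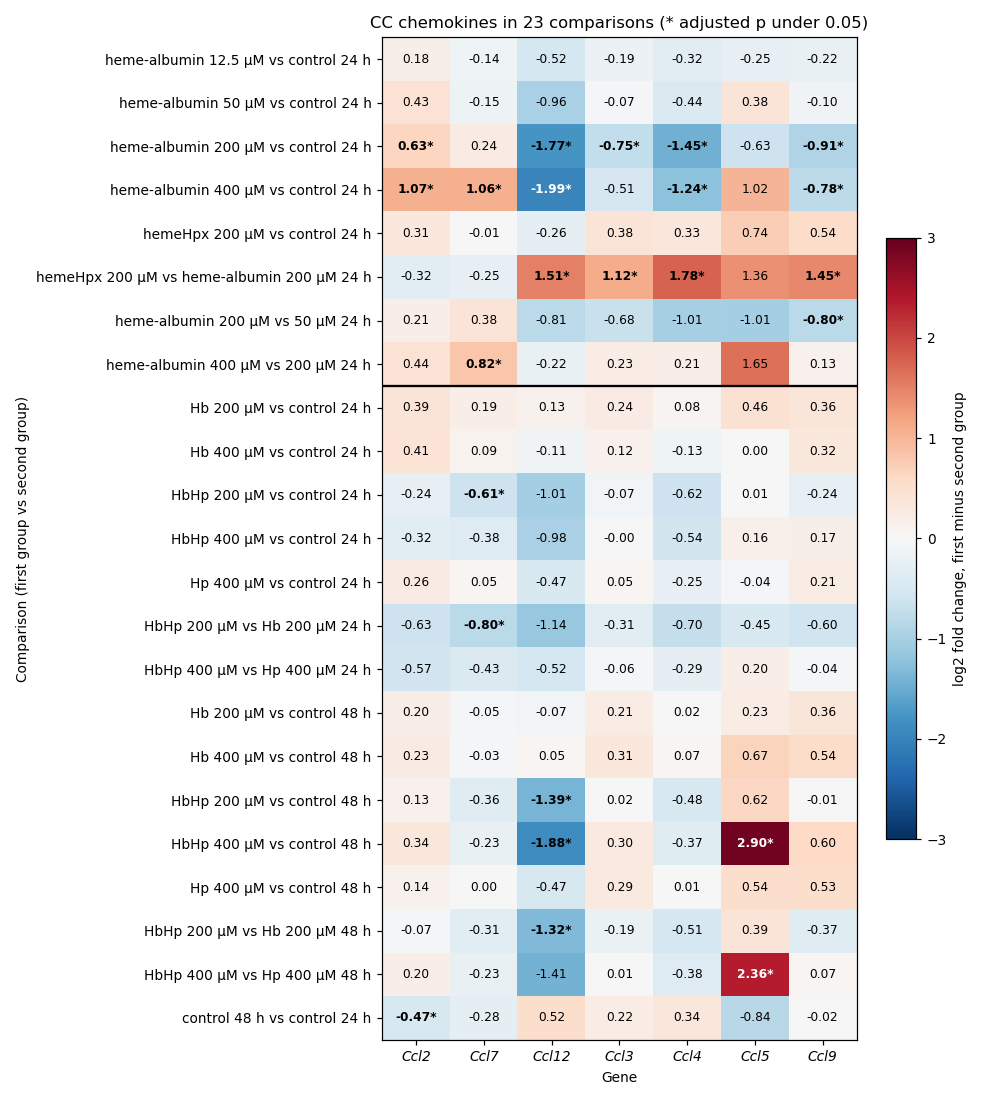
Log2 fold changes of the 7 CC chemokines (columns) in 23 comparisons (rows), from blue (lower in the first group) to red (higher), with an asterisk at an adjusted p under 0.05 and a line between batch 1 and batches 2 and 3. The heme-albumin rows at 200 and 400 µM hold both signs, with Ccl2 at 0.63 and 1.07 and Ccl12 at -1.77 and -1.99, whereas the rows of free Hb hold no asterisk.

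With time in culture alone, Ccl2 fell to 72% between the controls of 24 h (38.1 to 72.9 CPM) and 48 h (26.7 to 47.3 CPM), at -0.47 ± 0.14 (adjusted p = 0.0388). It was the only member called, with 4.50% of all genes. The call was lost in 8 of 16 alternatives, among them without replicate 8 of the 24 h controls (-0.39, adjusted p = 0.112), without replicate 7 of the 48 h controls (-0.48, adjusted p = 0.0548) and with a replicate block (-0.35, adjusted p = 0.307). Ccl7 and Ccl5 had 5 of 9 libraries of 48 h below every control of 24 h and were not called (-0.28 ± 0.12 and -0.84 ± 0.40). The change of the 200 µM Hb and HbHp differences from 24 h to 48 h was called for no member (0% and 0.0121% of all genes). Unadjusted p-values for it were 0.0864 or higher.

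Between libraries of the same group, some of the 7 genes varied together more than others. After removal of group, batch and prefix effects, Ccl3 and Ccl4 had a Pearson r of 0.903 over the 60 libraries of batch 1 and 0.956 over those of batches 2 and 3. Ccl12 correlated with Ccl4 at 0.814 and 0.917, and with Ccl3 at 0.835 and 0.843. Ccl2 and Ccl7 correlated with each other at 0.837 and 0.656. Between Ccl2 and Ccl4 the values were only 0.174 and -0.132, and between Ccl2 and Ccl12 0.337 and -0.162, although both are Ccr2 ligands. Ccl9 was linked to both kinds in batch 1, at 0.66 with Ccl2, 0.743 with Ccl7, 0.776 with Ccl12 and 0.837 with Ccl3, and Ccl7 correlated with Ccl12 at 0.589. The points share batch, depth and cell makeup, so these values are descriptions.

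Among genes of at least 1 CPM on average, those most like each member were found in the same way. Ccl2 was closest to Cxcl1 (0.933), Nfkbia (0.916) and Cxcl2 (0.889) in batch 1 and to Nfkbia (0.738), Lcn2 (0.706) and Slc11a2 (0.695) in the others. Ccl9 was closest to its neighbour Ccl6 in both sets (0.905 and 0.891). Ccl4 was closest to Ctsz (0.946) in batch 1. Ccl3 was closest to Clec4d (0.932) in batch 1 and to Wfdc17 (0.928) in batches 2 and 3. In the same order of sets, Ccl12 was closest to Cstb (0.92) and to Ms4a6c (0.92). In that order Ccl7 had Gadd45b (0.823) and Tlr2 (0.6), and Ccl5 had Cd14 (0.756) and Tnf (0.62).

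**Figure D5:**
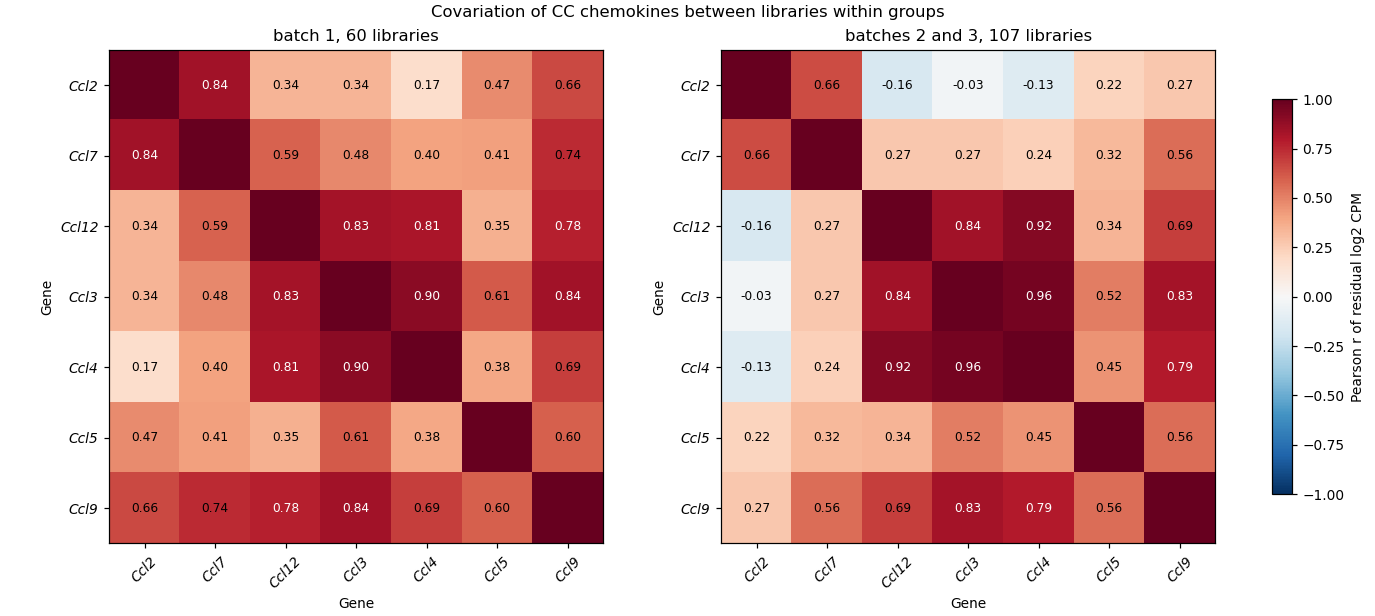
Pearson r between the 7 CC chemokines over 60 libraries of batch 1 (left) and the libraries of batches 2 and 3 (right), computed on log2 CPM after removal of group, batch and prefix effects, from blue (negative) to red (positive). Ccl12, Ccl3 and Ccl4 form a block of values from 0.81 to 0.96, and Ccl2 pairs with Ccl7 at 0.84 and 0.66 but lies near 0 with Ccl3 and Ccl4 on the right.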

How the data were processed

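Bulk mRNA libraries (TruSeq mRNA) of brain slice cultures were analysed from the whole read counts per Ensembl gene that the authors deposited for each library, without normalization. The submitters' processing notes name featureCounts and the build GRCm39, and the aligner, its settings and the strand rule are not given in the sources used here. Gene order and exon lengths came from GENCODE M21 (GRCm38) and windows from RefSeq (GRCm38.p6), so no gene coordinates of the counting build are printed.

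The 60 libraries of batch 1 and the assigned libraries of batches 2 and 3 were fitted apart with edgeR 4.0.16 in R 4.3.3 (limma 3.58.1), the second set with batch and name prefix as terms. TMM scaling, filterByExpr (smallest count 10, smallest total 15), the quasi-likelihood F test and Benjamini-Hochberg adjustment over all genes (15554 and 16473 tested, all 7 members in both) were used, with 26 comparisons in all. Differences are log2 fold changes and SE is the difference divided by the square root of F. CPM of the 2 sets were scaled apart and are not compared. The likeness of genes used log2 CPM with a prior count of 2. The script was tested on simulated counts. No 2 libraries of a group were alike within sampling noise (724 pairs, smallest chi-square per degree of freedom 3.48).

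The members, gene lists and comparisons were chosen with earlier results of these data known. Named genes are the 7 members, up to 4 genes per list with the smallest adjusted p, and the 3 genes most like each member. Lists of markers of neurons, oligodendrocytes and endothelial cells with pericytes were also read. With 400 µM heme-albumin (29% of all genes called) 1 of 8 neuron markers rose, no oligodendrocyte marker was called, and 2 of 8 vascular markers fell. Between hemeHpx and heme-albumin at 200 µM (25.9% called) the oligodendrocyte markers Cnp, Mog and Mobp and the vascular markers Kdr and Cldn5 were called higher. Alternatives were DESeq2 1.42.0, RLE scaling, no filter, robust dispersions, a replicate block, other terms, single prefixes or batches, and libraries left out. Among these, the share of all genes called was counted only for HbHp against control and against Hp in E2 alone. Figures used matplotlib 3.10.9 and Python 3.11.15. The 21 libraries without a group entered no comparison. Results on some listed genes are not reported here.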

Additional observations from a re-analysis of the deposited data

Results flagged for a closer look

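Each member was examined for a library that stood apart from the rest of its group. Dixon's test on log2 CPM was run in 112 sets of values, of which 11 gave such a library. The groups of Hp alone, with 12 libraries at 24 h and 11 at 48 h, were not tested. Chance gives such a library in about 5% of the groups tested.

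Replicate 2 of HbHp 400 µM at 48 h was apart for 3 members, with Ccl5 at 15.91 CPM (next highest 0.8635), Ccl9 at 127.9 CPM (next 47.76) and Ccl3 at 93.98 CPM (next 59.09). Replicate 14 of the batch 1 controls was lowest for Ccl2 at 30.55 CPM (next 45.68) and for Ccl7 at 4.455 CPM (next 9.088). Replicate 8 of heme-albumin 12.5 µM was highest for Ccl9 at 53.5 CPM (next 39.17) and for Ccl3 at 42.69 CPM (next 26.15). Ccl5 was apart in hemeHpx replicate 4 at 4.743 CPM (next 0.7933) and, on the low side, in HbHp 200 µM at 48 h replicate 5 at 0.2033 CPM (next 0.5582). Ccl7 in replicate 8 of the 24 h controls of batches 2 and 3 stood at 17.09 CPM (next 11.17), and Ccl3 in HbHp 200 µM at 24 h replicate 2 at 54.82 CPM (next 41.74).

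In the libraries tagged HbHpx 400 µM, whose titles name haptoglobin and which were therefore placed in no group, the median of 10 libraries lay above every control library for 2 members. Median Ccl9 was 97.05 CPM at 24 h (66.85 to 116.5), where the highest control had 62.13 CPM, and 95.42 CPM at 48 h (74.71 to 139.5), where the highest control had 60.26 CPM. Median Ccl7 was 11.27 CPM at 48 h, where the highest control had 10.7 CPM. These differences were not tested.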

How the results depend on the processing

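Every batch 1 call against control, and every call between hemeHpx and heme-albumin, was kept in each of the 6 or 7 alternatives run for it. Of the recomputed counts of called members, 247 stayed within 1.5 times of the value reported and 36 did not. The 247 include counts of 0 that stayed at 0, in comparisons where no member was called. In batch 1, heme-albumin 50 µM against control went from 0 members to 1 with DESeq2 and to 1 with the replicate block, and hemeHpx against control from 0 to 1 with the block (Ccl9, 0.56, adjusted p = 0.0323). For 200 against 50 µM the count of 1 became 2 with DESeq2, 2 with the block, 0 without a filter on low counts and 0 without the 4 libraries of high Ccl5, an alternative chosen after seeing the data.

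In batches 2 and 3, HbHp 200 µM against control at 24 h went from 1 to 0 with the replicate block, 0 with the batch term only, 0 in E2 alone and 2 in batch 3 alone. Against Hb 200 µM at 24 h, 1 became 2 with DESeq2, 2 with the batch term only and 0 in E2 alone. At 48 h, HbHp 200 µM against control fell from 1 to 0 with the batch term only, and against Hb from 1 to 0 without a filter, with the batch term only, in E2 alone and in batch 3 alone. HbHp 400 µM against control had 0 at 24 h and 1 in batch 3 alone, and at 48 h 2 became 1 in E2 alone and 1 in batch 3 alone. HbHp against Hp at 48 h went from 1 to 2 with DESeq2, in E2 alone and in batch 3 alone, and to 0 without the 4 libraries. Leaving out single libraries it ranged from 0 to 1, and Ccl5 from -0.199 to 2.641 on the log2 scale, with the reversed sign without replicate 2 of HbHp and also -0.199 without the 4 libraries. Hb 400 µM against control at 24 h went from 0 to 1 in E1 alone. Control 48 h against 24 h fell from 1 to 0 without a filter, with the block, with the batch term only, and in E1, E2 and batch 3 alone, and ranged from 0 to 1 without single libraries. The cause of these changes was not tested.

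Library codes were shared between groups. Same-code pairs correlated above 0.1 in 94 of 169 pairs in batch 1 and 124 of 291 in batches 2 and 3. Not every pair passed, and the main fits did not use the codes to pair the libraries. That rule cannot show the libraries to be unpaired, and the fits with a replicate block by code are given as alternatives. The median r of same-code pairs was 0.192 in batch 1 and 0.0611 in batches 2 and 3, above that of other pairs (-0.0101 and -0.00498), a hint of pairing in batch 1. Ccl5 stood near or below 1 CPM in most groups, which limits what its counts can show.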

Other observations

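The control library whose labels give conflicting times had Ccl2 at 49.14 CPM, Ccl7 at 12.11 CPM, Ccl12 at 12.41 CPM and Ccl9 at 54.69 CPM, scaled together with the unassigned libraries and the controls. In the libraries tagged HbHpx 400 µM, Ccl12 ran from 2.463 to 14.89 CPM at 24 h and from 3.262 to 12.34 CPM at 48 h. The controls ran from 2.313 to 9.391 CPM and from 1.897 to 16.13 CPM, so the range at 48 h lay within theirs. At 24 h the 3 E2 libraries had 8.483, 13.58 and 14.89 CPM, of which 2 were above every control.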
